A study of Homo sapiens with 6 samples.

Results

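The G2 and mitosis genes described here were 46 genes chosen by symbol: the cyclins and kinases that drive entry into mitosis, and the checkpoint, kinetochore, spindle, cytokinesis and chromosome genes that carry it out. All 46 were among the 15802 genes of the deposited table, and all 46 were among the 11613 genes with enough counts to be tested. RNA was measured by bulk sequencing of poly(A) transcripts in the human cell line SC1, which the labels call a B cell lymphoma, in 3 libraries treated with bryostatin at 1 nM and in 3 libraries treated with DMSO, the solvent. Bryostatin, a marine natural product, acts on protein kinase C at the site where diacylglycerol binds. How long cells were treated is not stated in the labels, no genotype or allele was labelled beyond the name of the line, and all results are from this line alone.

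A cell that has copied its DNA enters mitosis when CDK1 bound to a B-type cyclin becomes active. Kinetochores then attach chromosomes to spindle microtubules, the spindle assembly checkpoint holds the cell until the attachments are made, and the anaphase-promoting complex destroys cyclin B and securin so that sister chromatids part. Most of these genes are transcribed in G2 and mitosis and kept low in G1, which is why their transcripts are widely used as a measure of how much of a population is dividing. In bulk RNA, fewer dividing cells and less transcript per dividing cell cannot be told apart.

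Promoters of this gene class are known for a short element called the cell cycle genes homology region (CHR), bound by the DREAM and B-MYB complexes, and for CCAAT boxes, bound by NF-Y. RefSeq promoter windows (build GRCh38.p14, 250 bases before to 50 bases after the annotated start, the first listed window of each gene) were matched for 39 of the 46 members. The letters TTTGAA, on either strand, were found in 28 of these 39 windows (71.8%), against 9.59% of the windows of 9610 tested genes. The letters CCAAT, on either strand, were found in 28 (71.8%), against 37.3%. Both were found in 21 (53.8%), against 4.09%. The members with the highest and lowest fold changes (PTTG1 and NUF2, BUB1B and MAD2L1) and the member that differed most between libraries (MKI67) are shown, each 5′ to 3′ on the gene's own strand, with both motifs in capitals.
PTTG1 (chr5:160421605-160421904, + strand): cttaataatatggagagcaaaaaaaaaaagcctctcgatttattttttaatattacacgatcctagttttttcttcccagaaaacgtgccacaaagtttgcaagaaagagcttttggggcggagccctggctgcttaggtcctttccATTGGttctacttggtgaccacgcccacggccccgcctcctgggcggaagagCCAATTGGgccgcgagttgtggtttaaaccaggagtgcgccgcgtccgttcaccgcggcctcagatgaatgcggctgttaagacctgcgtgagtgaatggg
NUF2 (chr1:163321704-163322003, + strand): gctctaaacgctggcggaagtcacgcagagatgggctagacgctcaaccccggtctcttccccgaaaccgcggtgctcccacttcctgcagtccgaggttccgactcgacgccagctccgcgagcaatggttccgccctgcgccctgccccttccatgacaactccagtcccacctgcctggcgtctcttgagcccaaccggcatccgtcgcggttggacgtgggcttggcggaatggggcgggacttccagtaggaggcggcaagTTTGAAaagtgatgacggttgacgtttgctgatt
BUB1B (chr15:40160819-40161118, + strand): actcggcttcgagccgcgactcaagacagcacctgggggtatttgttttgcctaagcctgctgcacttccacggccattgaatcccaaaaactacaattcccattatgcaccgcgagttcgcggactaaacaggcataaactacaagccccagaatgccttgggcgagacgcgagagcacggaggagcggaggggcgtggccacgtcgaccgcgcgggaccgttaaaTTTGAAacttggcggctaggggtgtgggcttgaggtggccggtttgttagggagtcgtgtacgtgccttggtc
MAD2L1 (chr4:120066799-120067098, - strand): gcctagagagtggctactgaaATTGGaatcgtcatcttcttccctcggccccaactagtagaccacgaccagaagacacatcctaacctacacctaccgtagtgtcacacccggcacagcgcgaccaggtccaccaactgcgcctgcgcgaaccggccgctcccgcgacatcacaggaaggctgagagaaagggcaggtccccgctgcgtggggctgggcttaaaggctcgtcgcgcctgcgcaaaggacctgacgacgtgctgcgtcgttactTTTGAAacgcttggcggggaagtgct
MKI67 (chr10:128126374-128126673, - strand): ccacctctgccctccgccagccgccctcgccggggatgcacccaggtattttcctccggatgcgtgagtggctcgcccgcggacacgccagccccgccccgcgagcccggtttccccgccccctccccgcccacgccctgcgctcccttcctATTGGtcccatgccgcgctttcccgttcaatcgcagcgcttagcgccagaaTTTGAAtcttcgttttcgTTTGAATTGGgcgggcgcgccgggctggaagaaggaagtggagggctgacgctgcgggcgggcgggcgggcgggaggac
With the start counted as base 1, TTTGAA began at base 17 of NUF2, 23 bases before the start of BUB1B and at base 25 of MAD2L1, so the member with the second highest fold change and both of the lowest carried it close to the start. MKI67 held it at 47 and at 29 bases before the start, the latter overlapping a CCAAT box on the other strand. PTTG1 held CCAAT boxes at 103, 51 and 48 bases before the start, the last 2 overlapping each other on opposite strands, and no TTTGAA in this window. A match of letters is a description and does not show binding.

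Depth was 18162161 to 18915394 expected counts per library. Bryostatin 1 stood apart from the other libraries of its group, with a chi-square per gene of 41 and 37.5 against bryostatin 2 and 3, while bryostatin 2 and 3 differed by 2.93 and the DMSO libraries by 2.74 to 4.39. Nothing in the labels ties the replicates to separate cultures. The p-values therefore speak only to the spread among these 6 libraries, which may be technical. All 8 B-cell markers were detected, as the label of the line has it, and their summed level was 3480 to 3620 CPM with bryostatin and 2310 to 2420 CPM with DMSO; the part of this difference in the results was not tested. T and NK cell markers summed to at most 0.323 CPM in any library, over the 6 of 10 markers in the table. Myeloid markers (7 of 9 in the table) summed to 12.1 to 24 CPM with bryostatin and 18.2 to 29.4 CPM with DMSO, nearly all from S100A8 and S100A9, and epithelial, stromal or endothelial markers (10 of 10) to 5.48 to 8.19 and 7.97 to 10.1 CPM. CPM are the edgeR counts scaled to TMM library size, and a value with ± is the mean and SD of a group (n = 3). Log2 fold changes are bryostatin over DMSO, as estimate ± SE.

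In the fit of all 6 libraries, none of the 46 members passed the edgeR quasi-likelihood test at a Benjamini-Hochberg adjusted p of 0.05, in a comparison in which 4.56% of all tested genes passed (3.72% higher and 0.835% lower). That count rested on bryostatin 1: without it 15 members passed (32.6%, against 27.0% of all genes tested), and with libraries weighted by quality 13 passed (28.3%, against 26.2%). Log2 fold changes ran from -0.18 (BUB1B) to 0.42 (PTTG1), with a median of 0.06 beside -0.0014 over all tested genes. Of the members, 7 had an unadjusted p under 0.05 (18.7% of all tested genes did): NUF2, PTTG1, NUSAP1, TPX2 and CCNB2 with positive and BUB1B and MAD2L1 with negative fold changes. DESeq2 called 2 members higher, NUF2 and PTTG1, where it called 5.48% of all genes (3.98% higher and 1.49% lower). That share is over the 15789 genes to which it gave a p-value, including genes with few counts, and not over the 11613 tested by edgeR. With library size as the only scaling none was called, where 4.45% of all genes were (3.26% higher and 1.19% lower).

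The estimates were precise enough to bound these differences. The 95% interval of the fold change, taken gene by gene and without adjustment over genes, lay inside 1.5-fold either way for 43 of 46 members and inside 2-fold for all 46, against 65.7% and 86.6% of all tested genes. The members whose interval reached past 1.5-fold were PTTG1, MKI67 and CENPE. The median SE of a log2 fold change was 0.076 for members and 0.125 for all tested genes. Only PTTG1 and NUF2 had an estimate beyond 1.2-fold in either direction, and 30 members had an estimate within 10% of the DMSO level.

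**Figure D1:**
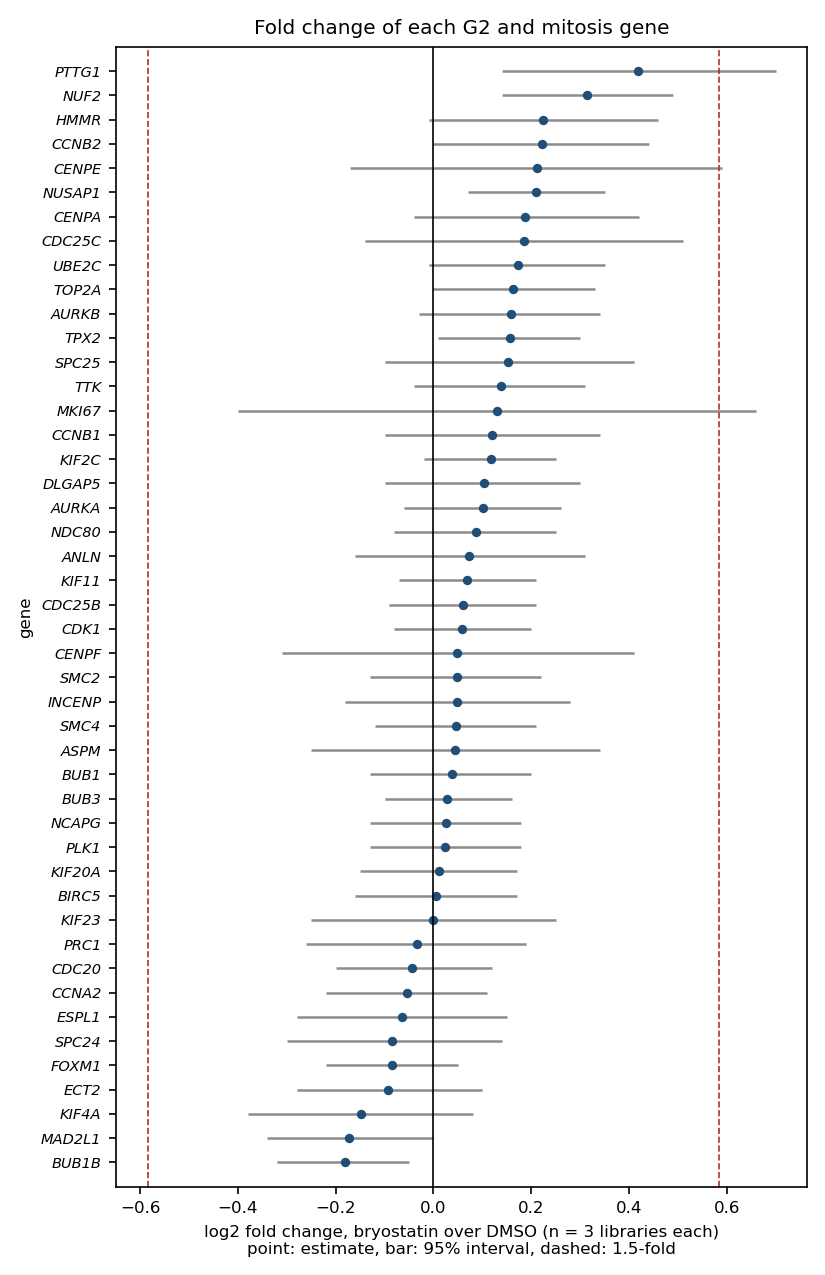
Log2 fold change of each member, bryostatin over DMSO (horizontal axis, log2 units), with its 95% interval as a bar and dashed lines at 1.5-fold. Estimates run from -0.18 for BUB1B to 0.42 for PTTG1, and the intervals of PTTG1, MKI67 and CENPE reach past the dashed lines.

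In CPM the groups did not overlap for 14 of 46 members (30.4%, against 27.8% of all tested genes). These were 11 (15.3% of all genes) with every bryostatin library above every DMSO library (CCNB2, TTK, NUF2, CENPA, AURKB, NUSAP1, TPX2, KIF2C, TOP2A, UBE2C and PTTG1) and 3 (12.5% of all genes) with every bryostatin library below (BUB1B, MAD2L1 and FOXM1). On the deposited TPM, TTK, NUF2, NUSAP1, TPX2, KIF2C and TOP2A lost this separation, as bryostatin 1 lay inside or below the DMSO range. CCNA2, SPC24, CDC20 and ESPL1 were separated, with bryostatin below, on TPM only. The shares of all genes on TPM were not taken. The level summed over the members was 8190, 8532 and 8577 CPM with bryostatin (libraries 1, 2 and 3) and 7953, 7968 and 8189 CPM with DMSO. In this sum bryostatin 1 lay next to DMSO 3, and bryostatin 2 and 3 lay above. MKI67 alone had 403, 755 and 823 CPM with bryostatin and 552, 609 and 651 CPM with DMSO. Bryostatin 1 thus lay further below bryostatin 2 and 3 in MKI67 than in the whole sum. Its place in the sum therefore rested on MKI67 and is not read as the level of the members at large.

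**Figure D2:**
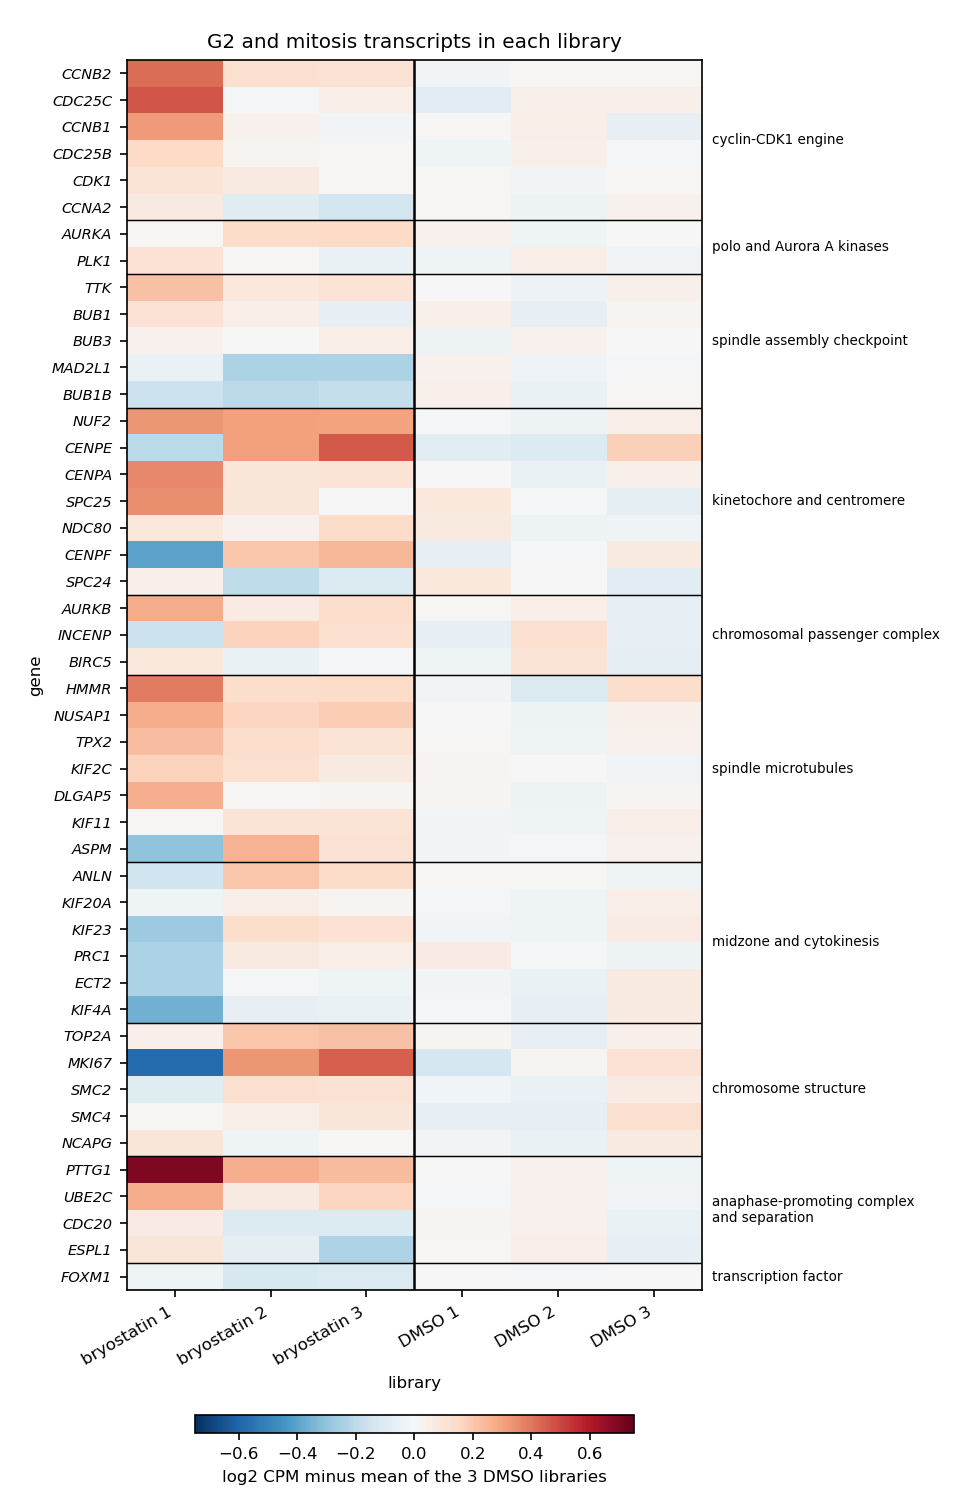
Log2 CPM of each member minus the mean of the 3 DMSO libraries (colour), by library (columns) and by role (rows). The bryostatin 1 column holds both the deepest red, PTTG1 at 0.70, and the deepest blue, MKI67 at -0.58, while bryostatin 2 and 3 resemble each other.

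The cyclin and CDK1 genes stayed close to their DMSO level. CDK1, the kinase whose activity defines entry into mitosis, had 149, 146 and 140 CPM with bryostatin (libraries 1, 2 and 3, here and for every gene) and 141, 137 and 140 CPM with DMSO (log2 fold change 0.06 ± 0.06, 95% interval -0.08 to 0.20, edgeR adjusted p = 0.661). Its groups overlapped, and no library stood out. CCNB1, which encodes cyclin B1, had 244, 199 and 193 CPM with bryostatin and 196, 202 and 187 CPM with DMSO (0.12 ± 0.10, adjusted p = 0.559), so that bryostatin 1 alone lay above the DMSO range. CCNB2, which encodes cyclin B2, showed the same order with 132, 107 and 106 CPM against 97.6, 99.3 and 99.2 CPM (0.22 ± 0.10, adjusted p = 0.261), here with all bryostatin libraries above. Without bryostatin 1 the log2 fold change was 0.11 for CCNB2 and 0.0035 for CCNB1. CCNA2, the cyclin of S phase and G2, was at 285 ± 22.4 against 295 ± 7.6 CPM. The phosphatases that remove the inhibitory phosphates of CDK1 did not differ beyond the spread of the libraries: CDC25B was at 202 ± 10.9 against 194 ± 4.97 CPM. CDC25C had 19.7, 14.1 and 14.7 CPM with bryostatin and 13.5, 14.6 and 14.6 CPM with DMSO, again high in bryostatin 1 alone (log2 fold change 0.18 ± 0.14, and 0.02 without that library).

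Polo and Aurora kinases were likewise near their control level. PLK1, which acts in centrosome maturation, chromosome alignment and mitotic exit, had 272, 255 and 244 CPM with bryostatin and 247, 262 and 250 CPM with DMSO (log2 fold change 0.02 ± 0.07, 95% interval -0.13 to 0.18, edgeR adjusted p = 0.884). AURKA, the centrosomal Aurora kinase, had 112, 123 and 124 CPM with bryostatin and 114, 109 and 112 CPM with DMSO (0.10 ± 0.07, adjusted p = 0.488). Without bryostatin 1 AURKA passed at 0.14 (edgeR adjusted p = 0.0303, range over the alternatives 0.0303 to 0.982). Its activator TPX2 was at 418 ± 20.7 against 375 ± 8.29 CPM, with separated groups (0.16 ± 0.06, adjusted p = 0.227, and 0.0346 without bryostatin 1, range over the alternatives 0.0346 to 0.548). Of the chromosomal passenger complex, AURKB, its kinase, had 109, 93.7 and 98.1 CPM with bryostatin and 90.2, 93 and 86.4 CPM with DMSO, with the groups just apart (0.16 ± 0.08, adjusted p = 0.343, and 0.09 on the log2 scale without bryostatin 1). BIRC5, which encodes survivin, had 201, 184 and 188 CPM against 186, 203 and 181 CPM, with overlapping groups (0.01 ± 0.07, adjusted p = 0.978). The scaffold INCENP was at 192 ± 22.9 against 186 ± 13.2 CPM. With quality weights INCENP passed at 0.15 (voom adjusted p = 0.0491, range over the alternatives 0.0491 to 0.998).

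The spindle assembly checkpoint held the lowest fold changes of the whole set. BUB1B (chromosome 15, 40161069 to 40221123, GRCh38), which encodes the checkpoint protein BubR1, had 214, 208 and 212 CPM with bryostatin and 246, 232 and 241 CPM with DMSO. Every bryostatin library lay below every DMSO library, and bryostatin 1 lay with its group (log2 fold change -0.18 ± 0.06, 95% interval -0.32 to -0.05, edgeR adjusted p = 0.139). MAD2L1 (chromosome 4, 120055623 to 120066848), which encodes the checkpoint effector MAD2, had 185, 162 and 163 CPM with bryostatin and 196, 188 and 190 CPM with DMSO. Its groups were also apart, with bryostatin 1 the nearest to DMSO (-0.17 ± 0.07, adjusted p = 0.254). Without bryostatin 1 both passed the edgeR test, BUB1B at -0.19 (adjusted p = 0.00178, range over the alternatives 0.00178 to 0.480) and MAD2L1 at -0.24 (adjusted p = 2.91e-04, range 2.91e-04 to 0.592). The other 3 checkpoint genes had fold changes above 0, none past the test. The kinase BUB1 had 163, 157 and 145 CPM with bryostatin and 155, 145 and 153 CPM with DMSO (0.04 ± 0.07, adjusted p = 0.823). BUB3, the partner of both BUB1 and BubR1, had 248, 243 and 250 CPM against 236, 248 and 243 CPM (0.03 ± 0.06, adjusted p = 0.843). The kinase TTK, also called MPS1, was at 67.7 ± 3.63 against 61.6 ± 1.54 CPM.

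Among the kinetochore genes, NUF2 stood furthest from its control level. NUF2 (chromosome 1, 163321954 to 163355759), a subunit of the NDC80 complex that binds microtubules, had 55.2, 54.2 and 54 CPM with bryostatin and 43.5, 42.5 and 45.3 CPM with DMSO. In CPM the groups were wide apart and bryostatin 1 lay with bryostatin 2 and 3. NUF2 had the smallest p of the members (log2 fold change 0.31 ± 0.08, 95% interval 0.14 to 0.49, edgeR adjusted p = 0.0568, 7.61e-04 without bryostatin 1, 0.0181 by DESeq2, range over the alternatives 7.61e-04 to 0.272). On the deposited TPM, bryostatin 1 (42.06) lay inside the DMSO range (38.35 to 42.15), and bryostatin 2 and 3 (49.79 and 48.77) lay above it. NUF2 was not called on TPM (limma adjusted p = 0.231). Its direct partner NDC80 had 100, 96.9 and 105 CPM with bryostatin and 99.4, 92.5 and 92.7 CPM with DMSO (0.09 ± 0.07, adjusted p = 0.563). The other subunits of the same complex, SPC24 and SPC25, were at 32.5 ± 2.63 against 34.5 ± 1.94 CPM and at 37 ± 4.83 against 33.3 ± 1.68 CPM. So of the 4 subunits only NUF2 had separated groups in CPM. The difference between subunits was not tested. CENPA, the histone H3 variant of centromeres, had 41.4, 34.5 and 34.6 CPM with bryostatin and 32.4, 31.3 and 33.3 CPM with DMSO, with the groups apart (0.19 ± 0.10, adjusted p = 0.368, and 0.09 on the log2 scale without bryostatin 1). CENPE, a kinetochore motor, had 75, 106 and 119 CPM with bryostatin and 81.2, 80 and 97.6 CPM with DMSO (0.21 ± 0.16, adjusted p = 0.539). The corona protein CENPF was at 277 ± 64.3 against 268 ± 12.6 CPM (0.05 ± 0.16, adjusted p = 0.902). For both genes bryostatin 1 lay below the DMSO range and bryostatin 2 and 3 above it. Without bryostatin 1 both passed the edgeR test, CENPE at 0.38 (adjusted p = 0.00756, range over the alternatives 0.00756 to 0.874) and CENPF at 0.23 (adjusted p = 4.77e-04, range 4.77e-04 to 0.981).

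Spindle genes mostly had small positive fold changes. HMMR, a microtubule-associated receptor for hyaluronan, had 121, 101 and 102 CPM with bryostatin and 90.8, 85.6 and 101 CPM with DMSO (log2 fold change 0.22 ± 0.10, edgeR adjusted p = 0.279, and a log2 fold change of 0.13 without bryostatin 1). KIF11, the kinesin that pushes spindle poles apart, had 267, 284 and 284 CPM against 262, 260 and 274 CPM (0.07 ± 0.06, adjusted p = 0.599). ASPM, a spindle-pole protein, had 106, 157 and 141 CPM against 129, 130 and 134 CPM (0.04 ± 0.13, adjusted p = 0.894), with bryostatin 1 lowest of the 6, and without it ASPM passed at 0.19 (edgeR adjusted p = 0.00807, range over the alternatives 0.00807 to 0.994). NUSAP1, which bundles spindle microtubules, was at 298 ± 13.6 against 257 ± 6.7 CPM with separated groups (0.21 ± 0.06, adjusted p = 0.112, and 0.00316 without bryostatin 1, range over the alternatives 0.00316 to 0.385). The kinesin KIF2C, which depolymerises microtubules, was at 222 ± 7.25 against 205 ± 2.3 CPM, and the spindle protein DLGAP5 at 122 ± 12.6 against 114 ± 2.89 CPM. 

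The midzone and cytokinesis genes had the lowest median of the larger role groups, -0.02 on the log2 scale with all 6 libraries. Without bryostatin 1 their median was 0.05, and the checkpoint genes had the lowest (-0.0029). Bryostatin 1 was the lowest of the 6 libraries for all 6 midzone and cytokinesis genes. For KIF20A it was level with DMSO 2 at the digits given (82.1 CPM in both). PRC1, which crosslinks midzone microtubules, had 77.4, 96.3 and 94.9 CPM with bryostatin and 95.3, 90.7 and 88.9 CPM with DMSO (-0.03 ± 0.10, edgeR adjusted p = 0.888). KIF4A, the kinesin that sets midzone length with PRC1, had 64.8, 79.6 and 80.4 CPM against 82.5, 79.4 and 87.1 CPM (-0.15 ± 0.10, adjusted p = 0.476). ECT2, the exchange factor that activates RhoA at the cleavage furrow, had 95.6, 112 and 111 CPM against 112, 109 and 118 CPM (-0.09 ± 0.08, adjusted p = 0.599). In each of these, bryostatin 2 and 3 lay at or close to the DMSO level and bryostatin 1 below it. Without bryostatin 1 their log2 fold changes were 0.06 for PRC1, -0.06 for KIF4A and -0.03 for ECT2. KIF23 was at 87.2 ± 12.8 against 87.2 ± 3.03 CPM, KIF20A at 84.7 ± 2.45 against 84.1 ± 2.51 CPM and the scaffold anillin, ANLN, at 71.9 ± 9.13 against 68.4 ± 1.03 CPM.

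Among the genes of chromosome structure, the proliferation marker MKI67 varied most. MKI67 (chromosome 10, 128096659 to 128126423), which encodes Ki-67, the coat of mitotic chromosomes, had 403, 755 and 823 CPM with bryostatin and 552, 609 and 651 CPM with DMSO. Bryostatin 1 was the lowest of the 6 libraries and bryostatin 2 and 3 the highest (log2 fold change 0.13 ± 0.23, 95% interval -0.40 to 0.66, edgeR adjusted p = 0.809). Without bryostatin 1 its log2 fold change was 0.38 (edgeR adjusted p = 0.00172, range over the alternatives 0.00172 to 0.981). TOP2A (chromosome 17, 40388525 to 40417896), the topoisomerase that untangles sister chromatids, had 639, 719 and 724 CPM with bryostatin and 627, 596 and 639 CPM with DMSO. Its groups in CPM were apart by less than the digits shown, with bryostatin 1 level with DMSO 3 (0.16 ± 0.07, adjusted p = 0.278, and 3.14e-04 without bryostatin 1, range over the alternatives 3.14e-04 to 0.789). On the deposited TPM, bryostatin 1 (151.81) lay below every DMSO library (167.77 and above). The condensin subunits SMC2, SMC4 and NCAPG were at 264 ± 20.9, 413 ± 12.2 and 176 ± 7.34 CPM with bryostatin and at 255 ± 9.93, 400 ± 29.8 and 173 ± 7.33 CPM with DMSO, within the spread of the libraries.

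PTTG1, which encodes securin, the inhibitor of separase, had the highest fold change of the 46. PTTG1 (chromosome 5, 160421855 to 160428744) had 229, 169 and 166 CPM with bryostatin and 141, 144 and 138 CPM with DMSO. All bryostatin libraries lay above all DMSO libraries, bryostatin 1 by the most (log2 fold change 0.42 ± 0.12, 95% interval 0.14 to 0.70, edgeR adjusted p = 0.109, range over the alternatives 2.61e-04 to 0.349, with the lowest without bryostatin 1, where the estimate was 0.25). PTTG1 has near-identical copies elsewhere in the genome with which it can share reads, so its level is uncertain. UBE2C, the ubiquitin-conjugating enzyme of the anaphase-promoting complex, had 97.8, 84.8 and 89.8 CPM with bryostatin and 79.7, 82.3 and 79.5 CPM with DMSO, with separated groups (0.17 ± 0.08, adjusted p = 0.280). CDC20, the activator that the checkpoint inhibits, was at 211 ± 14.1 against 218 ± 6.26 CPM, and the separase gene ESPL1 at 91.7 ± 10.3 against 95.8 ± 3.88 CPM. FOXM1, the transcription factor that activates many of these genes in G2, had 231, 217 and 219 CPM with bryostatin and 236, 234 and 236 CPM with DMSO. The groups were apart by a small margin (-0.09 ± 0.06, adjusted p = 0.489, and 0.0399 without bryostatin 1, range over the alternatives 0.0399 to 0.761).

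**Figure D3:**
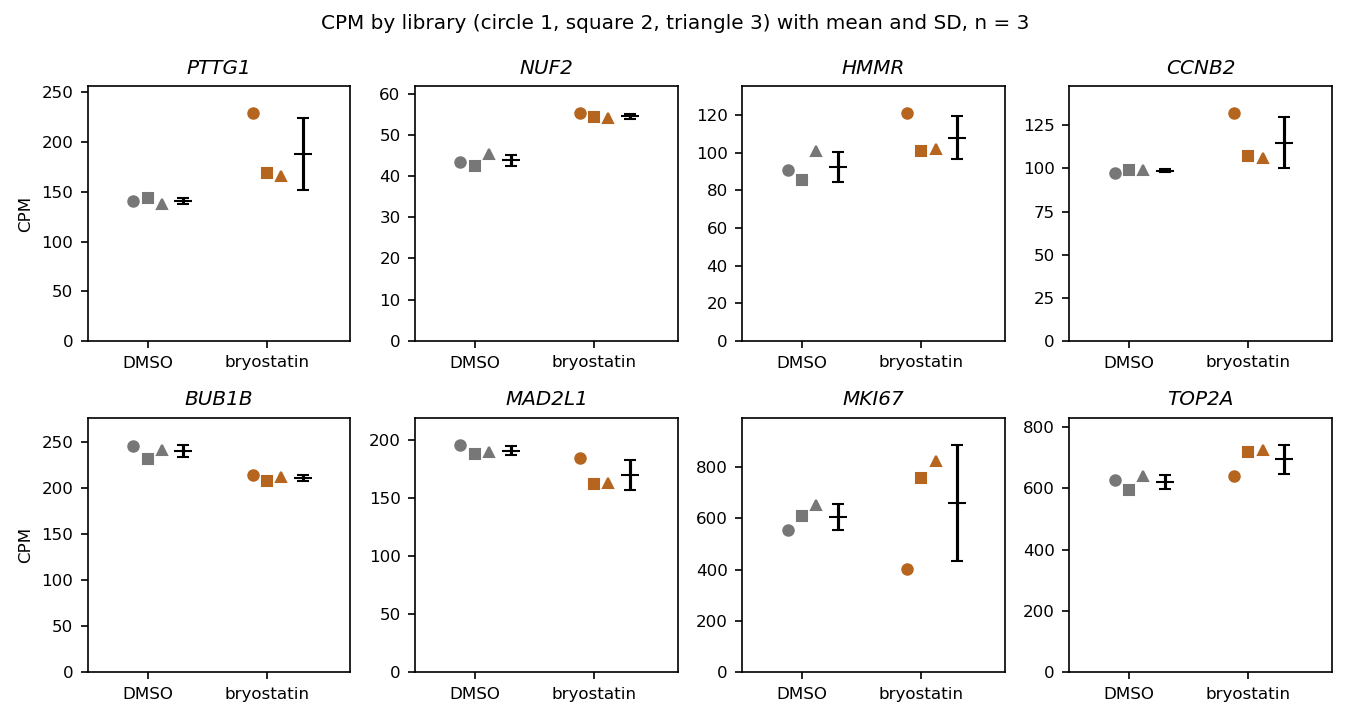
CPM by library for 8 members (vertical axis from 0), with the mean and SD of 3 libraries beside the points. NUF2 and BUB1B have separated groups with bryostatin 1 (circle) among its group, while bryostatin 1 is the highest point for PTTG1 at 229 CPM and the lowest for MKI67 at 403 CPM.

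Bryostatin 1 was the outermost of the 6 libraries for 35 of 46 members, the highest for 23 and the lowest for 12. The matching shares of all tested genes, here and for the counts by length below, were not taken. As bryostatin 1 stood apart over all genes, these counts are not read as a trait of the members. The SD over members of the log2 difference from the DMSO mean was 0.25 in bryostatin 1, 0.13 and 0.15 in bryostatin 2 and 3, and 0.04 to 0.06 in the DMSO libraries. In bryostatin 1 this difference followed transcript length, taken as the effective length implied by the deposited counts and FPKM. Across the 46 members, which share 1 library and are not independent replicates, Pearson's r with log2 length was -0.76 in bryostatin 1, against 0.16 and 0.11 in the other bryostatin libraries and -0.40, -0.27 and 0.50 in the DMSO libraries. Over all tested genes r was -0.33 in bryostatin 1 and -0.11 to 0.13 in the other libraries. Of the 6 members with an effective length over 5000 bases, 5 (CENPE, CENPF, ASPM, TOP2A and MKI67) were lower in bryostatin 1 than in bryostatin 2 and 3, and ESPL1 was not. Of the 9 under 1500 bases, 8 were higher there than in both, among them PTTG1 (459 bases), AURKB (951 bases) and CENPA (1122 bases). The part of transcript length in the fold changes was not tested beyond a refit with a length offset.

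**Figure D4:**
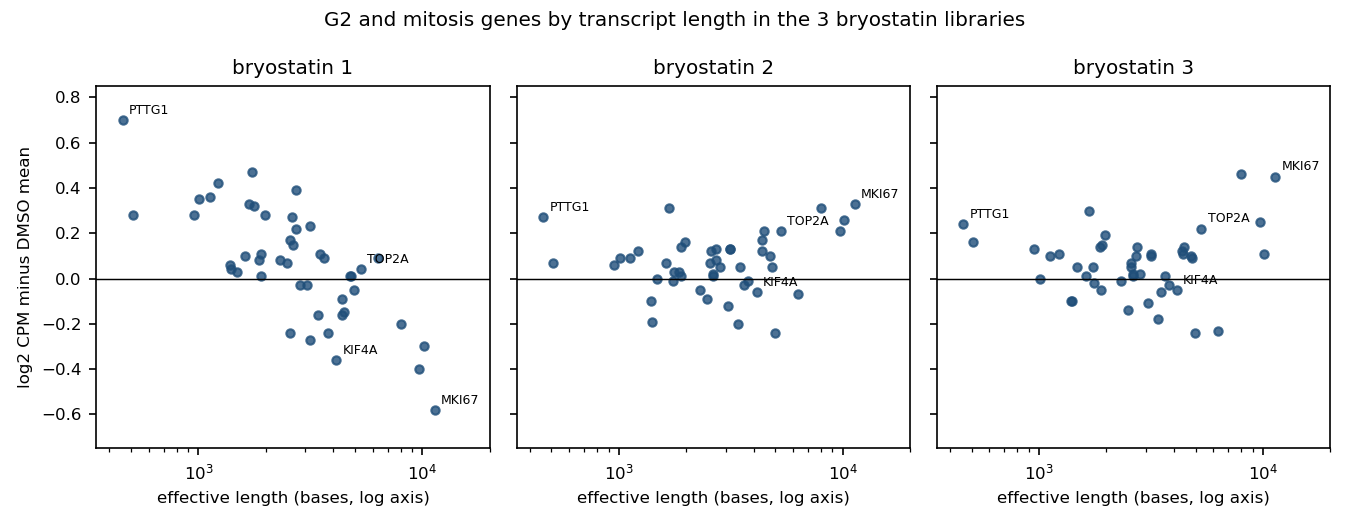
Log2 CPM minus the DMSO mean (vertical axis) against effective transcript length in bases (log axis) for the 46 members in each bryostatin library. In bryostatin 1 the points slope down from PTTG1 at 459 bases to MKI67 at 11339 bases, and in bryostatin 2 and 3 they do not.

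The 15 members that passed without bryostatin 1 were 11 higher and 4 lower (13.8% and 13.2% of all genes). Those that rose in this comparison of 2 against 3 libraries were PTTG1, TOP2A, CENPF, NUF2, MKI67, NUSAP1, CENPE, ASPM, ANLN, AURKA and TPX2, and those that fell were MAD2L1, BUB1B, CCNA2 and FOXM1. Their log2 fold changes ran from -0.24 to 0.38, and none had the opposite sign in the fit of all 6 libraries. The 13 that passed with quality weights were 11 higher and 2 lower (13.9% and 12.3% of all genes), and 12 of them were among the 15. The other was INCENP. With an offset that removed each library's trend along length, chosen after the data were seen, 4 members rose and none fell (10.7% of all genes passed, 6.73% higher and 3.98% lower). PTTG1 had a log2 fold change of 0.38 there (edgeR adjusted p = 0.00308), TOP2A of 0.20 (0.0272), NUF2 of 0.28 (0.0452) and NUSAP1 of 0.18 (0.0477). In that fit MKI67 had 0.18 ± 0.12 (adjusted p = 0.373) and BUB1B -0.19 ± 0.05 (adjusted p = 0.0550).

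Per unit of length, mitotic transcripts were abundant in SC1. The deposited TPM, averaged over the 6 libraries, had a median of 81.1 over the members and 14.5 over all tested genes, and 45 of 46 members lay above the latter. PTTG1 had the highest level (470 ± 4.35 TPM with DMSO and 587 ± 52.4 TPM with bryostatin), followed by UBE2C (243 ± 2.46 and 258 ± 11.1 TPM) and BUB3 (250 ± 2.56 and 242 ± 23.3 TPM). CDC25C had the lowest (12.4 ± 0.903 and 13.4 ± 1.59 TPM), after CENPE (16.6 ± 2.17 and 18.2 ± 5.47 TPM) and ASPM (19.9 ± 0.711 and 19.4 ± 5.12 TPM). The range was wide but its steps were small: in 31 of 45 neighbouring pairs in the DMSO order, the levels lay within their summed SDs. On TPM with limma, PTTG1 was the only member called (adjusted p = 0.0423, where 4.42% of all genes passed, 2.43% higher and 1.99% lower), and the median of the members was -0.03 on the log2 scale, beside -0.09 over all genes. The sign of the members' median thus turned with the unit, while its distance from the median of all genes was 0.06 in both.

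Other mitotic genes were taken from 6 lists of 127 genes that do not overlap the members. Of 126 tested in the fit of all 6 libraries, 1 rose, none fell and 125 did not pass, where 4.56% of all genes passed. Their median log2 fold change was 0.0028. Without bryostatin 1, 17 passed higher and 24 lower (13.8% and 13.2% of all genes). With the length offset 4 passed higher and 5 lower (6.73% and 3.98% of all genes). The members had 11 and 4, and 4 and 0, in the same fits, and the difference between the lists was not tested. The one that rose was KIFC1, a minus-end-directed spindle kinesin, with 165, 139 and 143 CPM with bryostatin and 113, 118 and 116 CPM with DMSO (0.36 ± 0.08, edgeR adjusted p = 0.0448). All its bryostatin libraries lay above all its DMSO libraries. It lost the call without bryostatin 2 (adjusted p = 0.0625), bryostatin 3 (0.110), DMSO 1 (0.229), DMSO 2 (0.186) or DMSO 3 (0.205), with the replicate block (0.103), without the filter on low counts (0.0513) and on TPM (0.0518). By list, 0 of 13 other mitotic kinases and phosphatases, 0 of 36 other kinetochore and centromere genes, 1 of 30 other spindle and cytokinesis genes, 0 of 15 other condensin and cohesin genes, 0 of 17 anaphase-promoting complex genes and 0 of 15 DREAM and B-MYB regulators passed. At an unadjusted p under 0.05 these numbered 3, 4, 4, 3, 1 and 3, where 18.7% of all tested genes passed. The genes with the smallest p besides KIFC1 were CEP55, which acts in abscission (0.41 ± 0.10, adjusted p = 0.0536), and SGO1, the shugoshin that guards centromeric cohesion (0.38 ± 0.09, adjusted p = 0.0549). CDC25A, a phosphatase that activates CDKs, had -0.35 ± 0.10 (adjusted p = 0.103), and the kinase gene STK10 0.31 ± 0.10 (0.141). HJURP, the chaperone of CENPA, had 0.26 ± 0.08 (0.112). Of the chromosome genes, the condensin subunit NCAPD3 had -0.17 ± 0.06 (0.183) and the cohesin subunit STAG1 -0.20 ± 0.08 (0.228). Of the anaphase-promoting complex list, ANAPC1 had -0.30 ± 0.11 (0.198) and the ubiquitin-conjugating enzyme UBE2S -0.21 ± 0.12 (0.388). Of the regulators, the pocket protein gene RBL2 had 0.28 ± 0.10 (0.163) and CENPX, a histone-fold protein that was placed in that list in error, -0.36 ± 0.10 (0.0894).

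Among genes of the preceding cell cycle phases, more calls were also made without bryostatin 1. Over all genes the share was 27.0% without it and 4.56% with all 6 libraries. Of 38 DNA replication and S-phase genes, with all 6 libraries, 1 fell, none rose and 37 did not pass, with a median log2 fold change of -0.02. Without bryostatin 1, 1 passed higher and 6 lower (13.8% and 13.2% of all genes). With the length offset 0 and 1 did (6.73% and 3.98% of all genes). The gene that fell with all 6 libraries was RRM2, the regulated subunit of ribonucleotide reductase, with 452, 438 and 454 CPM with bryostatin and 548, 552 and 553 CPM with DMSO (-0.30 ± 0.06, edgeR adjusted p = 0.0225). Its groups were well apart, and bryostatin 1 lay within its group. Without bryostatin 1 RRM2 had -0.31 (edgeR adjusted p = 4.22e-06). RRM2 lost the call without bryostatin 2 (adjusted p = 0.0834), bryostatin 3 (0.0773), DMSO 1 (0.153), DMSO 2 (0.140) or DMSO 3 (0.148) and with the replicate block (0.0896). Of 18 G1 cyclin, CDK and CDK inhibitor genes tested, none passed with all 6 libraries (6 had an unadjusted p under 0.05, as did 18.7% of all tested genes), with a median of -0.20. Without bryostatin 1, 2 passed higher and 5 lower (13.8% and 13.2% of all genes), with a median of -0.11. With the length offset 1 passed higher and 3 lower (6.73% and 3.98% of all genes). The smallest p were those of CDKN2A, which has a CDK inhibitor among its products (-0.47 ± 0.15, edgeR adjusted p = 0.131), and CCND3, which encodes cyclin D3 (0.35 ± 0.12, 0.168). In the S-phase list ORC6, a subunit of the origin recognition complex, had -0.39 ± 0.15 (0.227). The difference between these lists and the 46 members was not tested.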

How the data were processed

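The file deposited by the authors holds an expected count, an FPKM and a TPM for every gene in each of 6 libraries. Expected counts are estimates, and 6.31 to 7.22% of them per library had a fractional part. FPKM, as the authors deposited them, divide by length and library size, and served here only to recover effective lengths. The deposited TPM divide by length first. The submitters' processing notes list HISAT2 2.2.1, RSEM 1.2.28, DESeq2 1.40.2 and GRCh38 without saying what each did. The sources used here give neither the annotation nor the strand setting. A long transcript yields more fragments, so levels are compared between genes on TPM only.

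The main test took rounded expected counts into edgeR 4.0.16 under R 4.3.3, with filterByExpr, TMM scaling and the robust quasi-likelihood fit (2-sided). P-values were adjusted by Benjamini-Hochberg over 11613 genes, with a threshold of 0.05. The code was checked on simulated counts in which no library stood apart, so the check does not cover the effect of bryostatin 1. The SE is the log2 fold change divided by the root of F, and 95% intervals use the fit's degrees of freedom. Alternatives were DESeq2 1.42.0, voom quality weights and other scalings and filters on counts, and limma 3.58.1 on log2(TPM + 1) or log2(TPM + 0.1) for genes with a mean TPM of at least 1. Coordinates are 1-based from RefSeq, GRCh38.p14.

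The members and lists were chosen with earlier results of these data known. Values per library are given by rule for 14 set members, members past the threshold, the 4 highest and 4 lowest fold changes, and the 3 highest and 3 lowest TPM; of each other list the 2 genes with the smallest p are named. Other members are given by group mean. Members shown as passing only in an alternative were singled out after their values were seen.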

Additional observations from a re-analysis of the deposited data

How the results depend on the processing

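Bryostatin 1 decided most: leaving it out raised the genes changed from 529 to 3183 and the members called from 0 to 11 higher and 4 lower, and leaving out any other library left 0 members called with 138 to 332 genes changed. The median of the members was 0.05 to 0.08 over the libraries left out. DESeq2 changed 865 genes and called 2 members higher. Quality weights gave 3040 genes, 11 members higher and 2 lower (median 0.08), and the length offset, chosen after seeing the data, 1243 genes and 4 higher (median 0.07). TPM gave 1 member higher (median -0.03 with either pseudocount), and the median was 0.05 with RLE factors or no filter and 0.02 with library size only. With the replicate block 338 genes changed, 0 members passed and the median was 0.06. Same-numbered libraries deviated from their group means with r = -0.212, -0.165 and 0.0311, and not every library correlated best with its own number. Bryostatin 1 lay apart and weighs on every bryostatin deviation, so these values cannot decide whether the numbers pair the libraries.

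Among the members given per library, some near 0 changed sign without a call in either fit. Sign changes of the members given by group mean are left out here. On TPM, with either pseudocount, these were CDK1 (-0.03), PLK1 (-0.07), BUB1 (-0.06), NDC80 (-0.01), KIF11 (-0.03), MKI67 (-0.01), BIRC5 (-0.09), BUB3 (-0.05) and ASPM (-0.07). With library size only they were PLK1 (-0.02), BUB1 (-0.0034), BIRC5 (-0.03) and BUB3 (-0.01). BIRC5 had -0.0013 with RLE factors and -0.0032 without a filter. With quality weights PLK1 had -0.01, BUB1 -0.01, PRC1 0.05 and BIRC5 -0.02, and with the length offset PLK1 had -0.01, BIRC5 -0.02 and BUB3 -0.01. Over the libraries left out, the ranges were -0.08 to 0.19 for ASPM, -0.03 to 0.06 for BIRC5, -0.0029 to 0.07 for BUB1, -0.07 to 0.38 for MKI67, -0.02 to 0.05 for PLK1 and -0.09 to 0.06 for PRC1. The cause was not tested.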
